A study of Mus musculus with 4 samples.

Results

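The nuclei described here are those that the authors' deposited annotation of mouse liver nuclei names CD45+ 1, which is 105 of 5193 nuclei. They were chosen by that cluster name alone. All nuclei came from single-nucleus RNA-Seq (snRNA-Seq) of livers of 3 WT and 3 HNKO mice, all female C57BL6/BomTac, 8 to 12 weeks old at the start and fed a purified control diet for 6 weeks. Both groups carried the floxed Nampt gene (Nampt fl/fl). WT mice had no Cre, whereas HNKO mice carried Alb-Cre, in which the albumin promoter drives Cre in hepatocytes, so that CD45+ nuclei themselves are not the targeted cells. Per the study's methods, mice of this cohort were anaesthetised and bile was collected through a duct catheter before the liver was taken. Nuclei of each mouse were labelled with their own hashtag, an antibody with an oligonucleotide that marks the mouse of origin, sorted at 4250 per mouse and pooled, and the deposited annotation assigns each nucleus to a mouse. The cluster had 5, 5 and 4 nuclei from WT mice 1 to 3 and 52, 14 and 25 from HNKO mice 1 to 3, where the mouse numbers follow the order of the hashtag names only.

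CD45, encoded by Ptprc, is a phosphatase on the surface of all white blood cells. The liver holds several myeloid cells that carry it. Kupffer cells are resident macrophages of the sinusoids and take up particles and old blood cells. Dendritic cells take up antigen and present it to T cells on MHC class II molecules, and are divided into type 1 conventional cells, which cross-present antigen, type 2 conventional cells, and plasmacytoid cells, which release type I interferon. Monocytes that enter an injured liver can become macrophages that differ from Kupffer cells in the genes they use.

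The 105 nuclei held 377126 unique molecular identifiers (UMIs), each a count of 1 captured RNA molecule, with a median of 3002 per nucleus, against 3087.5 in Kupffer nuclei and 4484 in hepatocyte nuclei. Levels are given as CPM, the UMIs of a gene scaled to a total of 1000000 UMIs over the same nuclei. The clusters were made from these genes, so a gene of the cluster set against other nuclei is a description and has no test. Nampt (chromosome 12, positions 32819545 to 32853349 in GRCm38), the gene targeted in hepatocytes, had a hepatocyte level of 84.8, 105 and 96.9 CPM for WT mice 1 to 3, against 84.1, 148 and 90.8 CPM for HNKO mice 1 to 3. These ranges overlapped. Reads from introns and from parts of the gene outside a deletion are counted too, so this value does not check the genotype labels. In HNKO mouse 3, 35.9% of all nuclei had most of their hashtag counts from the mouse's own hashtag, against 84.8% to 99.2% in the other mice.

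The 4 markers of the cluster were all high. Wdfy4, which is needed for cross-presentation in type 1 dendritic cells, was at 1604 CPM, against 371 in Kupffer, 586 in CD45+ 3 and 1.87 to 7.22 in hepatocyte, endothelial, stellate and cholangiocyte nuclei. Arhgap22, a regulator of Rac, was at 669 CPM, against 87.0 in Kupffer nuclei. H2-Eb1, a beta chain of MHC class II, was at 464 CPM, against 96.8 in Kupffer and 195 in CD45+ 3 nuclei. Mctp1, a membrane protein that binds calcium, was at 660 CPM, against 6.71 in Kupffer and 11.5 in CD45+ 3 nuclei. Wdfy4 and H2-Eb1 were thus shared with CD45+ 3, whereas Arhgap22 and Mctp1 were near background there. The Wdfy4 count was 7, 13 and 33 UMIs for WT mice 1 to 3, against 316, 96 and 140 for HNKO mice 1 to 3. The Arhgap22 count was 1, 4 and 4 UMIs against 146, 24.1 and 73.2. The H2-Eb1 count was 6, 2 and 11 against 102, 16 and 38, and that of Mctp1 was 5, 6 and 33 against 112, 27.5 and 65.0, so that HNKO mouse 1 gave most UMIs of all 4 genes. Each of the 4 genes was higher in CD45+ 1 nuclei than in the other nuclei in all 6 mice, but a WT value can rest on 1 UMI. After thinning each nucleus to 1000 UMIs, 74.3% of CD45+ 1 nuclei had a UMI of these 4 genes (95% exact binomial interval 64.8% to 82.3%, which covers counting error only), against 1.07% of hepatocyte, 35.0% of Kupffer and 64.0% of CD45+ 3 nuclei. The median depths before thinning were 3002, 4484, 3087.5 and 2728 UMIs, respectively. The plot of levels by nucleus type shows these genes beside those of other white blood cells.

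**Figure D1:**
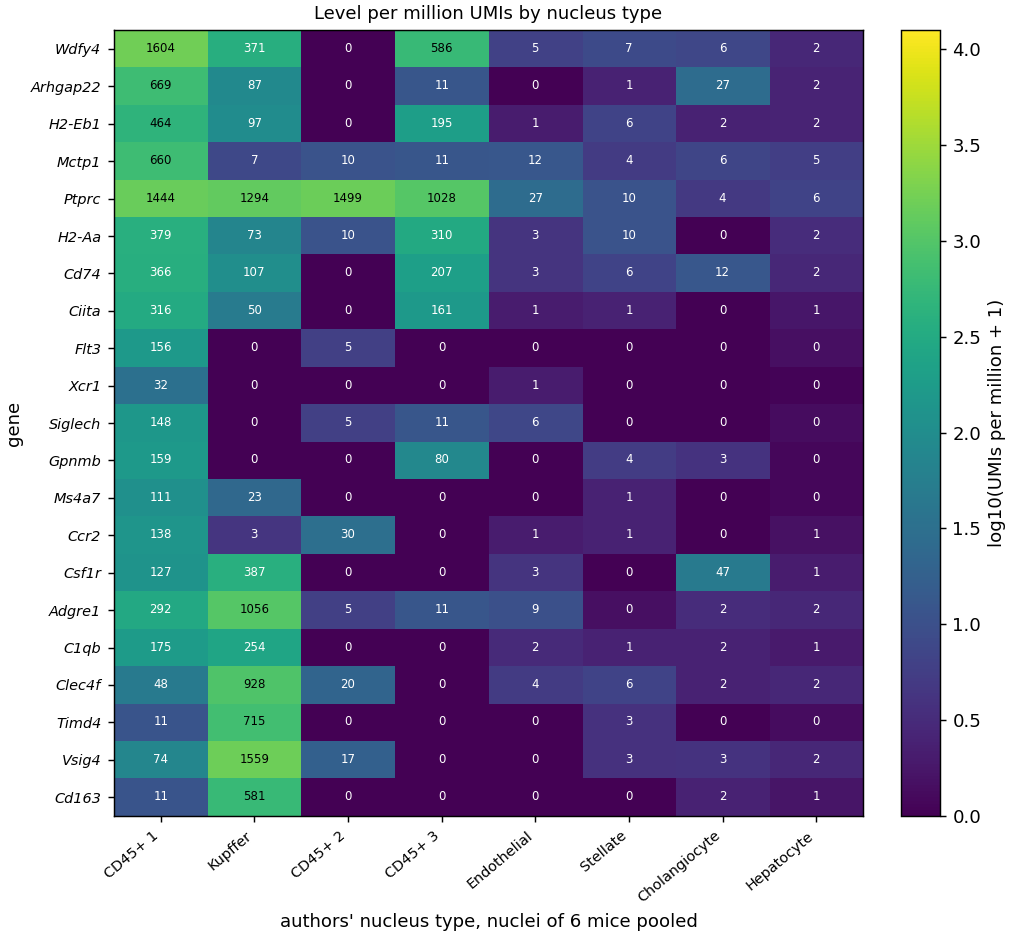
Heat map of UMIs per 1000000 UMIs for 21 genes (rows) in 8 types of nuclei (columns), with nuclei of 6 mice pooled and colour on a log10 scale. CD45+ 1 nuclei have Wdfy4 at 1604 and Mctp1 at 660 CPM, whereas Clec4f, Timd4, Vsig4 and Cd163 are highest in Kupffer nuclei.

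The label of a white blood cell held. Ptprc was at 1444 CPM with a UMI in 89.5% of nuclei, a level near that of Kupffer nuclei (1294). T cell genes were near 0. Cd3e, part of the T cell receptor complex, had 0 UMIs, which allows up to 7.95 CPM, and 5 of 9 T cell genes had any UMI, none of them 20 or more. B cell genes were present at a low level. The B cell list had 6 of 8 genes with a UMI and summed to 432 CPM, against 9250 in CD45+ 3 and 1688 in Kupffer nuclei, and a UMI of it was found in 22.9% of CD45+ 1 nuclei after thinning, against 1.27% of hepatocyte nuclei. Most of it was Bank1, a B cell scaffold protein, with 133 UMIs or 354 CPM. Bank1 was at 3608 CPM in CD45+ 3 and 1685 CPM in Kupffer nuclei, and the B cell genes Ms4a1 and Cd79b had 0 UMIs in CD45+ 1 nuclei. Of 7 neutrophil genes, 5 had 0 UMIs, among them S100a8, whereas Csf3r, the receptor for granulocyte colony-stimulating factor, had 25 UMIs in 21 nuclei (66.3 CPM, against 89.2 in Kupffer nuclei). Of 8 classical monocyte genes, 6 had a UMI. Ly6c2 and Chil3 had 0 UMIs, F13a1 had 10.4 UMIs in 6 nuclei and Ccr2 had 52 in 29. Fn1, Plac8, Vcan and S100a4 also had UMIs. Fn1 gave 142 of the 161 UMIs of this list in group 1 of the clustering below, which was led by hepatocyte genes. It had 17, 9, 7 and 3 UMIs in groups 2 to 5. The list summed to 728 CPM, against 381 in Kupffer and 1729 in hepatocyte nuclei. A UMI of it was found in 50.5% of CD45+ 1 nuclei after thinning, against 22.5% of Kupffer and 71.9% of hepatocyte nuclei.

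MHC class II genes were high together. Of 7 genes of the class II pathway, 5 had at least 20 UMIs and all 5 were at least 10 times the level in the other nuclei, beside 11.4% of all genes with at least 20 UMIs. H2-Aa, an alpha chain, was at 379 CPM, against 73.5 in Kupffer nuclei. Cd74, the invariant chain that guides class II molecules, was at 366 against 107. Ciita, the activator that switches the class II genes on, was at 316 against 50.1. H2-Ab1 was at 271 against 50.1. A UMI of the class II list was found in 64.8% of CD45+ 1 nuclei after thinning (54.8% to 73.8%), against 26.2% of Kupffer, 48.0% of CD45+ 3, 2.45% of endothelial and 1.84% of hepatocyte nuclei.

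The starts of the H2-Eb1 and H2-Aa genes are shown because class II genes are switched on together through short elements before the start, among them the Y box. The letters CTGATTGG of that box were searched on both strands of RefSeq promoters (GRCm38.p6), which run from 250 bases before to 50 bases after a start. Capitals mark the match and each sequence is written along its gene's strand. H2-Eb1 is at chr17:34305617-34305916 on the plus strand, with the match beginning 62 bases before the start, and H2-Aa is at chr17:34287774-34288073 on the minus strand, with the match beginning 51 bases before it.
H2-Eb1: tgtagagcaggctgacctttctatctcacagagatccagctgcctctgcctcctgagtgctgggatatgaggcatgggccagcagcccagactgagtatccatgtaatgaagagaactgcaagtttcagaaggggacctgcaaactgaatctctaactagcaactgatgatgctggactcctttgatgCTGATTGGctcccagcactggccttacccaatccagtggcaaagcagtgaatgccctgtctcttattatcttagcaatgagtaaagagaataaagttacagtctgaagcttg
H2-Aa: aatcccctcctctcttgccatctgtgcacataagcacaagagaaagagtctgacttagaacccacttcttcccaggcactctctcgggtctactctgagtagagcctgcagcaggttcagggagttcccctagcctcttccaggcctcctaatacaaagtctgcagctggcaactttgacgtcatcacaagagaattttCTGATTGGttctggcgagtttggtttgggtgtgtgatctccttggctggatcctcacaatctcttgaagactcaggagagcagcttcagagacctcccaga
The letters were found in 2 of the 4 list genes with a promoter in the table and in 4.1% of all 32851 promoters. H2-DMa and H2-DMb1 had no match in this window. A match is a description of the sequence and not a bound site.

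Among genes with at least 20 UMIs that were higher than in the other nuclei in each of the 5 mice with at least 5 CD45+ 1 nuclei, the 20 with the largest ratio over all other nuclei held the 4 markers, Ciita and Cd74. They were headed by Ms4a4a (62 UMIs, 416 times the level of the other nuclei) and also held Slamf7 (53 UMIs, 308 times). Genes that were not higher in every such mouse could have larger ratios, as had Il12b (34 UMIs, 989 times, higher in 2 of 6 mice) and Flt3 (59 UMIs, 334 times, higher in 5 of 6). Slamf7 is a receptor of activated white blood cells. Ccr2, the receptor for the chemokine that draws monocytes into tissue, was 182 times higher at 138 CPM, against 3.34 in Kupffer nuclei. Bcl11a and Runx2, transcription factors used by plasmacytoid cells, were 154 and 115 times higher. Bcl11a, which is also in the conventional dendritic list, was at 339 CPM, against 471 in CD45+ 3 nuclei. The 8 nuclei of group 5 below gave 63 of the 128 UMIs of Bcl11a and 160 of the 245 of Runx2.

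Kupffer genes were low. Timd4, a receptor for dying cells, was at 10.6 CPM, against 715 in Kupffer nuclei. Cd163, which takes up haemoglobin, was at 10.6 against 581. Clec4f, a lectin found on Kupffer cells, was at 47.7 against 928, and Vsig4, a complement receptor, at 74.2 against 1559. Of all 3690 genes with at least 20 UMIs in CD45+ 1 nuclei, 2235 were higher there than in Kupffer nuclei. None of the 10 genes of the Kupffer list, 3 of them with at least 20 UMIs, was higher. The filter on the 3690 genes was on CD45+ 1 counts alone and favours genes that are high there. These counts are therefore not like for like. A UMI of the list was found in 23.8% of CD45+ 1 nuclei after thinning (16.0% to 33.1%), against 98.8% of Kupffer, 18.8% of endothelial (14.1% to 24.2%) and 8.44% of hepatocyte nuclei. Endothelial nuclei do not lack the whole list, since Clec1b was at 99.5 CPM there and at 37.1 CPM in CD45+ 1 nuclei. With at least 2 UMIs, the share was 12.4% of CD45+ 1 nuclei (6.76% to 20.2%), against 98.8% of Kupffer, 3.27% of endothelial (1.42% to 6.33%) and 0.726% of hepatocyte nuclei. The list summed to 504 CPM, against 237 in endothelial and 7675 in Kupffer nuclei, and held Cd5l, a secreted macrophage protein, at 76.9 CPM against 3.17 in endothelial and 1476 in Kupffer nuclei. The pan-macrophage gene Csf1r, the receptor for the growth factor of macrophages, was at 127 CPM, and Adgre1, which encodes F4/80, at 292, against 387 and 1056 in Kupffer nuclei. All 10 genes of the shared macrophage list, 8 of them with at least 20 UMIs, were lower in CD45+ 1 than in Kupffer nuclei. This count also stands beside the 2235 of 3690 genes that were higher, with the same limit of the filter.

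The cluster did not hold a single kind of cell. Clustering the 105 nuclei on their own gave 5 groups of 26, 42, 14, 15 and 8 nuclei, and the same 5 at a finer resolution. Their leading genes are a description, since the groups were made from them. A group was called macrophage-like or dendritic-like only from the marker lists and the list genes among its leading genes.

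Group 2, with 42 nuclei (40.0%), was macrophage-like. All 10 shared macrophage genes had a UMI and all 42 nuclei had at least 1 of these UMIs. Gpnmb, a glycoprotein of macrophages that have taken up lipid, had 60 UMIs in 14 nuclei here and 0 in the other 63 CD45+ 1 nuclei. Ms4a7, a membrane protein of macrophages, had 42 UMIs in 22 nuclei and 0 in the others. C1qb, a part of the first complement component, had 58 UMIs in 30 nuclei, and Mertk, a receptor for dying cells, had 246 in 39. Mrc1, the mannose receptor, had 142 UMIs in 34 nuclei. Arhgap22 was high in this group (207 UMIs in 40 nuclei), whereas the dendritic gene Flt3 had 1 UMI. The type 1 dendritic list had 618 UMIs in 39 of these nuclei (4197 CPM), more than the shared macrophage list (3596 CPM), and 605 of them were from Cadm1, an adhesion molecule that was also at 2117 CPM in Kupffer and 473 CPM in hepatocyte nuclei. Clec9a gave 11 of these UMIs, Xcr1 and Naaa gave 0, and 4 of the 7 genes had any. Of the 10 Kupffer genes, 8 had a UMI, with 129 UMIs (876 CPM) in 24 of the 42 nuclei. Slc40a1 gave 63 of these UMIs in 19 nuclei, Vsig4 gave 21 in 3 and Cd5l gave 14 in 5. Clec1b had 12 UMIs in 9 nuclei, Clec4f had 9 in 5 and Timd4 had 0. Stab2, a scavenger receptor of the sinusoidal endothelium, was also among the 10 leading genes with 41 UMIs, and the 7 endothelial genes had 84 UMIs in 12 of the 42 nuclei, whose part in the group was not tested.

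Group 4, with 15 nuclei (14.3%), was type 1 dendritic-like, with a UMI of all 7 genes of that list. Xcr1, the chemokine receptor that defines these cells, had 12 UMIs in 6 nuclei and 0 elsewhere. Naaa, an acid amidase, had 31 UMIs in 11 nuclei and 1 elsewhere. Clec9a, a receptor for dead cells, had 100 UMIs in 14 nuclei, and Itgae, an integrin, had 19 in 8. Wdfy4 was densest here, with 380 of its UMIs, or 8121 CPM, in all 15 nuclei, and Mctp1 was at 2833 CPM. Flt3, the growth factor receptor of dendritic cells, had 24 UMIs in 9 nuclei.

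Group 5, with 8 nuclei (7.62%), was plasmacytoid dendritic-like, with a UMI of all 7 genes of that list. Siglech, a lectin of plasmacytoid cells, had 48 UMIs in all 8 nuclei and 8 UMIs elsewhere. Tcf4, the transcription factor that specifies this lineage, had 271 UMIs in all 8 nuclei (10560 CPM) and Runx2 had 160. Bcl11a had 63 and Pacsin1 18. Shared macrophage genes and Kupffer genes had 0 UMIs, and Arhgap22 had 0. Class II genes were low here, with 18 UMIs in 6 nuclei.

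Group 3, with 14 nuclei (13.3%), was dendritic-like, with a UMI of 7 of 8 conventional dendritic genes in 12 nuclei. The number of genes did not set it apart, since group 2 also had 7 (22 of 42 nuclei) and group 1 had 6 (18 of 26). The level of the list was 2831 CPM in group 3, against 292 in group 2 and 658 in group 1. It was 2721 CPM in group 4 and 2961 in group 5. Bcl11a gave 37 and Dpp4 gave 27 of the 136 UMIs of the list in group 3, and Bcl11a gave 63 of the 76 in group 5. Dpp4 was also at 619 CPM in endothelial and 244 CPM in hepatocyte nuclei. In group 3, Flt3 had 18 UMIs in 5 nuclei and Zbtb46, a transcription factor of conventional dendritic cells, had 21 in 7. Xcr1 had 0 UMIs and Naaa had 1. Relb, a transcription factor of mature dendritic cells, had 19 UMIs in 6 nuclei, and the lymph node homing receptor Ccr7 had 6 UMIs in 2 nuclei. Il12b, a subunit of the cytokines IL-12 and IL-23, led the group with 34 UMIs, but all of them were in 2 nuclei. Of the 7 type 2 dendritic genes, 5 had a UMI, with 22 UMIs (458 CPM) in 10 nuclei of this group. Cd209a gave 3 of them in 2 nuclei and Sirpa gave 16 in 9. Sirpa also had 110 UMIs in 34 nuclei of the macrophage-like group 2, where the type 2 list was at 754 CPM.

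Group 1, with 26 nuclei (24.8%), was left unnamed. Its leading genes were hepatocyte genes, among them Nr1h4, the bile acid receptor (83 UMIs against 5 in the other nuclei), Bhmt, which methylates homocysteine (131 against 11), and Hao1, a peroxisomal oxidase (48.4 against 2). The 10 hepatocyte markers made up 2.10% of its UMIs, against 0.231% to 0.405% in the other 4 groups. Ptprc had 54 UMIs in 20 of its 26 nuclei. The Kupffer list had 59 UMIs (539 CPM) in 17 of them, among them 18 of Slc40a1, 15 of Cd5l, 9 of Clec4f and 4 of Timd4. The shared macrophage list had 74.5 UMIs in 19 nuclei and the class II list had 64 in 12. The part of hepatocyte RNA in this group was not tested.

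Gpnmb and Ms4a7 were not found in the same nuclei as Flt3. Of 105 nuclei, 27 had a UMI of Gpnmb or Ms4a7 and 25 had a UMI of Flt3, and 0 had both, which allows up to 2.86% of nuclei. The C1q genes were found in 40 nuclei, of which 22 had Gpnmb or Ms4a7 and 0 had Flt3. The wider lists did overlap with Flt3. Of the 25 nuclei with Flt3, 6 had a UMI of the shared macrophage list and 5 had a UMI of the Kupffer list. Ccr2 was found in 29 nuclei, of which 5 had Gpnmb or Ms4a7 and 10 had Flt3. The type 1 dendritic list as a whole did not follow this split, since 25 of the 27 nuclei with Gpnmb or Ms4a7 and 37 of the 40 with C1q genes also had a UMI of that list, which holds the widely detected Cadm1. At this depth a nucleus without a UMI may still have held the RNA. In an alternative given in the closing section, group 3 did not stay separate from group 1. The 3 dendritic-like groups together held 37 nuclei (35.2%) against 42 macrophage-like nuclei. The plot of levels by group shows this split.

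**Figure D2:**
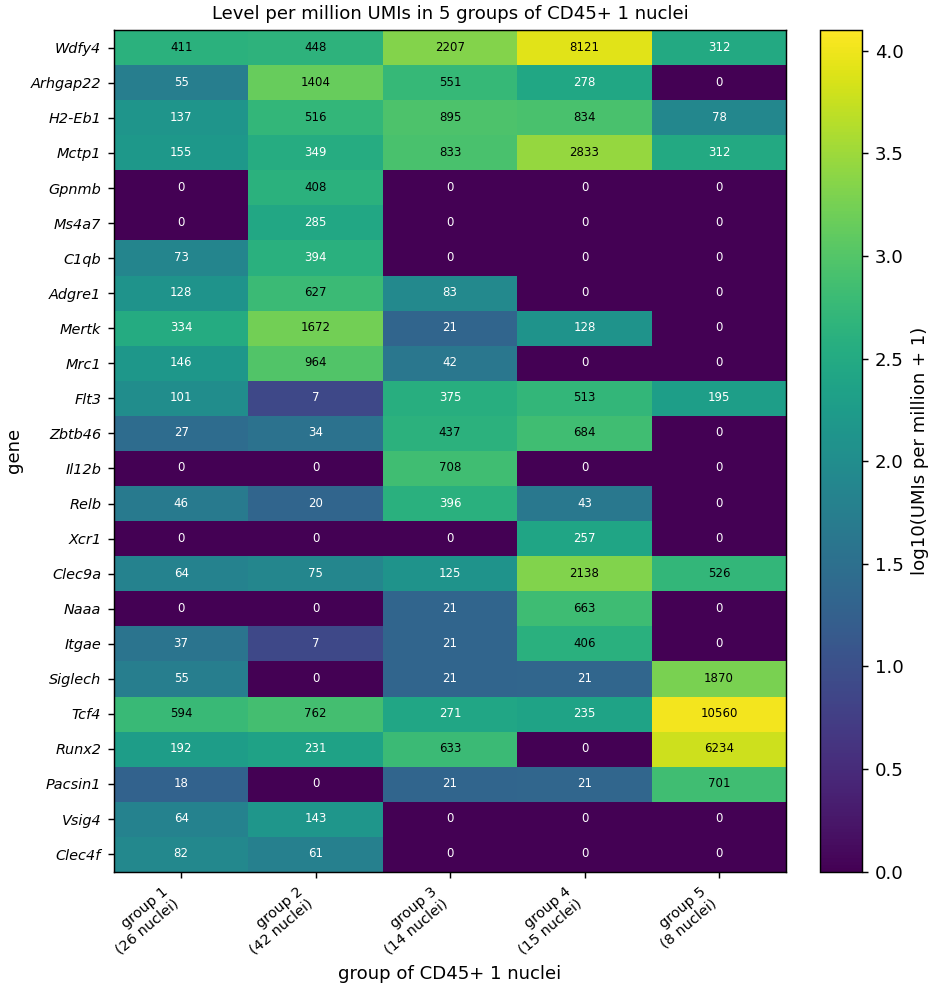
Heat map of UMIs per 1000000 UMIs for 24 genes (rows) in the 5 groups of CD45+ 1 nuclei (columns, with the number of nuclei), with colour on a log10 scale. Gpnmb and Ms4a7 have UMIs in group 2 only, Xcr1 in group 4 only, and Siglech and Tcf4 are highest in group 5.

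The groups were spread over the mice as follows. The macrophage-like group had 1, 2 and 1 nuclei from WT mice 1 to 3 and 24, 2 and 12 from HNKO mice 1 to 3. The Gpnmb count was 0, 3 and 0 UMIs for the WT mice against 28, 6 and 23 for the HNKO mice, and that of Ms4a7 was 0, 0 and 0 against 31, 0 and 11. Each WT value rests on 4 or 5 nuclei. The type 1 dendritic-like group had 0, 1 and 1 nuclei against 8, 2 and 3, the plasmacytoid dendritic-like group had 0, 1 and 0 against 2, 2 and 3, and group 3 had 1, 0 and 0 against 7, 2 and 4. By the deposited assignment, groups 2 to 5 each had nuclei from every HNKO mouse. Some CD45+ 1 nuclei had under 50% of their hashtag counts from their own hashtag. These were 1 of 5, 3 of 5 and 0 of 4 in WT mice 1 to 3, against 2 of 52, 8 of 14 and 23 of 25 in HNKO mice 1 to 3. The counts per mouse here and the sums per mouse below rest on that assignment. With 14 WT nuclei in all, no difference in makeup between genotypes was tested. The counts by mouse are plotted as stacked bars.

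**Figure D3:**
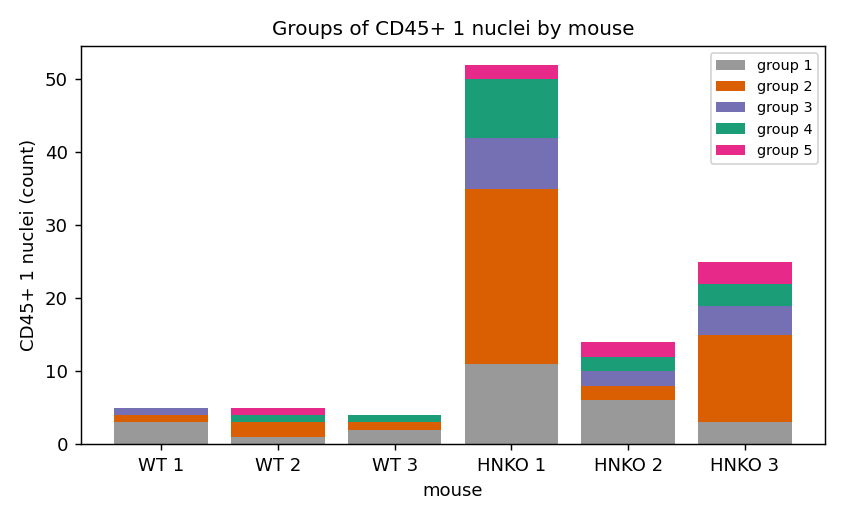
Stacked bars of the number of CD45+ 1 nuclei (vertical axis) in each of 6 mice (horizontal axis), coloured by group. HNKO mouse 1 holds 52 of the 105 nuclei and the 3 WT mice hold 5, 5 and 4.

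The share of CD45+ 1 nuclei was higher in each HNKO mouse than in any WT mouse, in a design that cannot reach a p below 0.1. They were 0.795%, 0.643% and 0.552% of all nuclei for WT mice 1 to 3, against 4.89%, 1.47% and 2.38% for HNKO mice 1 to 3. The groups did not overlap. The means were 0.663% ± 0.123 (SD, n = 3) and 2.92% ± 1.77 (SD, n = 3; exact permutation test, two-sided, p = 0.1, the smallest that 3 mice against 3 allow, Benjamini-Hochberg adjusted p = 0.35 over 7 measures). Of the nuclei that were not hepatocytes, the share was 7.04% ± 0.935 (SD, n = 3) in WT and 14.6% ± 5.37 (SD, n = 3) in HNKO mice (exact permutation test, p = 0.1), again without overlap. Of all CD45+ nuclei the shares were 40.6% and 62.0% (exact permutation test, p = 0.3) and of CD45+ 1 and Kupffer nuclei together 47.0% and 57.5% (p = 0.2, exact), with overlapping groups. HNKO mouse 1 was highest, and without it the difference in the share of all nuclei fell from 2.25 to 1.27 percentage points. Among nuclei with most hashtag counts from their own mouse, the shares were 0.707%, 0.297% and 0.586% in WT and 4.74%, 0.744% and 0.531% in HNKO mice, and the groups overlapped (exact permutation test, p = 0.4). Without the 26 nuclei led by hepatocyte genes, an alternative chosen after seeing the data, the shares were 0.318%, 0.514% and 0.276% against 3.86%, 0.842% and 2.10% (exact permutation test, p = 0.1). Nuclei were sorted and filtered by hashtag counts before deposit, and fewer hepatocyte nuclei and more CD45+ nuclei cannot be told apart in a share of all nuclei. The median UMI count of CD45+ 1 nuclei was 3322 ± 684 in WT and 3200 ± 307 in HNKO mice (SD, n = 3 each, exact permutation test, p = 0.9).

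**Figure D4:**
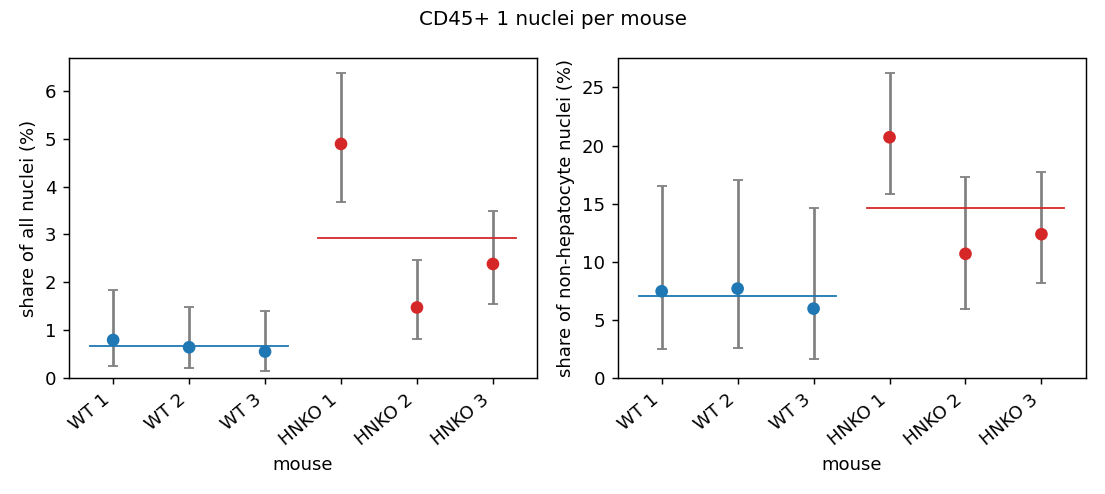
Share of CD45+ 1 nuclei among all nuclei (left, percent) and among non-hepatocyte nuclei (right, percent) in each mouse, with exact 95% binomial intervals as grey bars and group means as lines. The 3 HNKO mice, from 1.47% to 4.89% of all nuclei, lie above the 3 WT mice, from 0.552% to 0.795%.

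Within the cluster, no gene passed the test between genotypes. UMIs were summed per mouse over the 5 mice with at least 5 CD45+ 1 nuclei (2 WT and 3 HNKO), and 0 of 1612 genes (0%) were called by edgeR's quasi-likelihood test at a false discovery rate of 0.05, with 101 genes at an unadjusted p under 0.05 and 0 called by DESeq2 (61 unadjusted). Without a filter on low counts, edgeR called 2 of 13864 genes (0.0144%), which are named in the closing section. The WT sums rested on 5 nuclei each, so that this says little about the size of a difference. The smallest p was that of the gene 5430437J10Rik (edgeR, adjusted p = 0.507), with 0 UMIs in WT mice 1 and 2, 8 in WT mouse 3, which was not in the fit, and 102, 27 and 41 for HNKO mice 1 to 3. Epb41l2, a membrane skeleton protein, had 1, 1 and 0 UMIs against 136, 26 and 70 (log2 difference 3.32 ± 0.75, SE, edgeR adjusted p = 0.507). Cadm1, an adhesion molecule, had 6, 11 and 53 UMIs against 622, 79 and 278. Its levels were 449, 763 and 2507 CPM against 3325, 1404 and 3276, so WT mouse 3, not in the fit, lay above HNKO mouse 2. With every mouse in the fit its log2 difference was 1.06 (edgeR adjusted p = 0.887), against 2.25 with the 5 mice. In the other direction Cyp2c38, a hepatocyte cytochrome, had 7, 14 and 21 UMIs in WT and 21, 8 and 16 in HNKO mice (log2 difference -2.24 ± 0.54, SE, edgeR adjusted p = 0.507). The hepatocyte markers made up 1.21% ± 0.616 of UMIs in WT and 0.879% ± 0.71 in HNKO mice (SD, n = 3 each, exact permutation test, p = 0.5), and their part in these values was not tested. Nampt had 1, 1 and 1 UMIs in WT CD45+ 1 nuclei and 41, 13 and 11 in HNKO nuclei (edgeR adjusted p = 0.849).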

How the data were processed

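Liver nuclei of 6 mice were sequenced by the authors with 10x Genomics 3′ chemistry in 2 RNA pools and 2 hashtag pools. The authors made the read files with Cell Ranger version 5.0.1, quantified them with Alevin on GRCm38, and deposited estimated counts of UMIs, in which 10.1% of the values above 0 were not whole (tolerance 0.001). They also deposited hashtag counts and a table with the mouse, genotype and cluster of each nucleus. Nuclei with several hashtags or many genes had been removed by the authors, and no doublet caller was run here. A matrix of corrected values was not used.

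The members and the 32 marker lists were chosen with earlier results of these data known. Raw UMIs were summed by type and mouse. Genes named are the 4 markers, the lists, the 20 genes with the largest ratio to the other nuclei (10 and 5 against the nearest clusters) among those higher in each mouse with at least 5 CD45+ 1 nuclei, leading genes of sub-clusters, and the 5 smallest p in each direction of the genotype test, of which those the text needs are given. A gene in a ratio had at least 20 UMIs (10 in sub-clusters), and a level below 3 UMIs was set to 3. Sub-clusters came from scanpy version 1.11.5 (1500 variable genes, 15 components, 15 neighbours, Leiden resolution 0.5). Genotypes were compared with edgeR version 4.0.16 (sums rounded, filterByExpr, TMM, quasi-likelihood F test, Benjamini-Hochberg) and, as an alternative, DESeq2 version 1.42.0, and shares with exact permutation tests over mice. The edgeR script was tested on simulated data. Each mouse counted once, and p-values measure the spread between mice. CD45+ 1 nuclei had 13374 to 187076 UMIs per mouse.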

Additional observations from a re-analysis of the deposited data

How the results depend on the processing

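The direction of the share held under all 12 alternatives, and none reached a p below 0.05. Leaving out each mouse in turn gave a difference of 1.27 to 2.97 percentage points, with p = 0.2, the smallest that 2 mice against 3 allow in an exact test. The genotype test without a filter on low counts called 2 of 13864 genes (0.0144%), with 602 at an unadjusted p under 0.05, and these were 5430437J10Rik (edgeR adjusted p = 0.0136) and Ltbp1 (edgeR adjusted p = 0.00444), whose 10 UMIs were all in WT mouse 1. Every other alternative, each mouse left out included, called 0, and their smallest adjusted p was 0.0654 (edgeR, without HNKO mouse 2). Of 108 alternatives for the levels of 12 genes, 102 lay within 1 SD over mice and 0 changed sign. A change of sign was hardly possible at main log2 ratios of 2.18 (Clec4f) to 8.39 (Flt3). The clusters were made from such genes, so these counts are a description only. On the log2 scale, thinned nuclei gave a ratio to the other nuclei of 6.33 for H2-Eb1 against 7.27, of 7.23 for Wdfy4 against 7.83 and of 5.60 for Xcr1 (12 UMIs) against 8.19. Without HNKO mouse 1 the ratio was 6.93 for Ms4a7 against 8.11 and 7.85 for Flt3 against 8.39, and with mice weighted equally it was 7.91 for Flt3. Leaving out each mouse gave 7.70 to 8.08 for Wdfy4, 7.78 to 8.35 for Arhgap22, 6.89 to 7.40 for H2-Eb1 and 6.97 to 7.13 for Mctp1. With at least 2 UMIs after thinning, 51.4% of nuclei had the 4 markers and 40.0% the class II list, and without thinning 41.0% had the Kupffer list. The cause of the moves under thinning was not tested. Without the fifth of nuclei richest in hepatocyte UMIs, an alternative chosen after seeing the data, 4 groups were found. In these the 42 macrophage-like nuclei stayed together, as did 14 of 15 type 1 dendritic-like and 7 of 7 plasmacytoid dendritic-like nuclei. Group 3 did not stay separate, since 13 of its 14 nuclei fell together with 4 of the 6 remaining nuclei of group 1. The macrophage-like nuclei were joined by 2 nuclei of group 1, 1 of group 3 and 1 of group 4. No paired analysis was possible because the mouse numbers only order the hashtags. Values within each pool were not run, since the barcodes name no pool, nor was a minimum of 10 nuclei, which no WT mouse had. The 14 WT nuclei limit what the genotype comparison can show.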

Other observations

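The NAD genes of the lists, which make or use NAD, had a summed level of 848 CPM in CD45+ 1 nuclei and 1554 in Kupffer nuclei. All 12 had a UMI and none of the 5 with at least 20 UMIs was 10 times the level of the other nuclei. Of all genes with at least 20 UMIs, 11.4% were, and 5 genes are too few to tell 0 from that share. Of 8 cell division genes, 5 (Top2a, Cenpf, Cdk1, Ccnb1 and Aspm) had 0 UMIs in CD45+ 1 nuclei, and Diaph3 gave 63.0 of their 71.0 CPM (148 of 231 CPM in Kupffer nuclei). Interferon response genes were at 974 CPM against 1596, and Toll-like and other pattern receptors were at 779 against 951.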
